A study of Mus with 8 samples.

Results

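Ccl22, Ccl17 and Ccr4 encode the 2 chemokine ligands of the receptor CCR4 and the receptor itself. They were taken as the probe sets whose gene symbol is exactly one of these 3 names. All 3 were found, each with 1 probe set, among 21154 gene symbols measured on 8 Clariom S mouse arrays. The genes were chosen with their values on these arrays known, so their levels and differences are described here with no test. The gene lists used below were also chosen with earlier results of these data known. The counts and p-values of list members are therefore not independent of that choice.

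The study asked how BTEE, an ethanol extract of the green microalga Botryococcus terribilis, changes the response of RAW264 cells, a mouse macrophage-like cell line, to lipopolysaccharide (LPS), a component of bacterial outer membranes that macrophages sense through Toll-like receptor 4. BTEE cells received 0.2 mg/mL of the extract for 24 h and then 1 ng/mL LPS for 6 h or 17 h, and control cells received the same LPS for the same times without the extract. Each of the 4 groups had 2 arrays. No source states whether duplicates were grown as independent cultures. The p-values therefore rest only on the spread between duplicate arrays, pooled over the 4 groups and moderated by limma, and this spread may be technical. All 4 groups were stimulated, so no unstimulated level was measured here. The vehicle of the control is not named, and this dose lies above those for which the study states no significant cytotoxicity.

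Ccl22, also called macrophage-derived chemokine, and Ccl17, also called thymus and activation-regulated chemokine, are secreted by macrophages and dendritic cells. Both bind CCR4, which sits on type 2 helper T cells, regulatory T cells and skin-homing T cells, and they draw these cells into inflamed tissue. Their genes are neighbours on a chromosome and are known to be induced by IL4 and IL13 through Stat6, by GM-CSF through Irf4 and by NF-kB downstream of Toll-like receptors.

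Signals are on the log2 scale, so a difference of 1 is a doubling. The medians of the 8 arrays lay between 5.25 and 5.28. Duplicates correlated at 0.9984 to 0.9987 over all symbols, and arrays that differed only in the extract at 0.9942 to 0.9948. Background was read from 1442 olfactory, vomeronasal and taste receptor symbols, whose 5th to 95th percentiles spanned 2.71 to 5.26 over the arrays. Of 12 macrophage identity genes, 11 had a mean signal of at least 6, with a median of 14.90, against 1 of 8 T cell markers, 1 of 9 dendritic cell markers and 0 of 6 B cell markers. The summed linear signal of the macrophage genes was 974600 to 985800 in BTEE cells and 1047000 to 1062000 in control cells at 6 h, and 966100 to 967100 against 994700 to 998800 at 17 h. That of the dendritic cell markers was 197.0 to 197.2 against 205.3 to 211.6 at 6 h, and 177.7 to 198.8 against 183.6 to 200.4 at 17 h. The part of these shifts in the results was not tested. Fewer cells expressing a gene and less RNA of it per cell cannot be told apart in these arrays.

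Ccl22 was lower in BTEE cells at both times. Its gene lies at chr8:94745684-94751388 of the mouse build mm10. At 6 h its log2 signal was 16.54 and 16.49 on the control arrays and 15.08 and 15.08 on the BTEE arrays. At 17 h it was 11.48 and 11.44 on the control arrays and 10.22 and 10.04 on the BTEE arrays. At each time both BTEE arrays lay below both control arrays, and all 8 signals were far above the background range. The group means were 16.52 ± 0.04 (SD, n = 2) and 15.08 ± 0.00 at 6 h, and 11.46 ± 0.03 and 10.13 ± 0.13 at 17 h. The difference was -1.44 (SE 0.08) at 6 h, a 2.70-fold lower signal, and -1.33 (SE 0.08) at 17 h, a 2.51-fold lower signal. The difference at 17 h was thus 0.11 (SE 0.12) smaller in size than that at 6 h, and this gap is below its own error. The level itself was far lower at 17 h than at 6 h in both kinds of cells.

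Ccl17, at chr8:94809380-94812038, was lower in BTEE cells mainly at 6 h. Its log2 signal at 6 h was 12.30 and 12.24 on the control arrays and 10.62 and 10.08 on the BTEE arrays. At 17 h it was 7.70 and 7.71 on the control arrays and 7.41 and 7.37 on the BTEE arrays. Again no BTEE array reached a control array of its time, but the BTEE arrays of 6 h stood 0.54 apart, the widest spacing in any group for the 3 genes. The group means were 12.27 ± 0.04 (SD, n = 2) and 10.35 ± 0.38 at 6 h, and 7.71 ± 0.01 and 7.39 ± 0.03 at 17 h. The difference was -1.92 (SE 0.16) at 6 h, a 3.78-fold lower signal. Leaving out 1 or the other BTEE array of 6 h moved this value between -2.19 and -1.65. At 17 h the difference was -0.32 (SE 0.16), a 1.24-fold lower signal. It was larger than the spacing of the arrays of 17 h, 0.04 in BTEE and 0.01 in control cells, but smaller than that of the BTEE arrays of 6 h. The difference shrank by 1.61 (SE 0.22) from 6 h to 17 h.

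**Figure D1:**
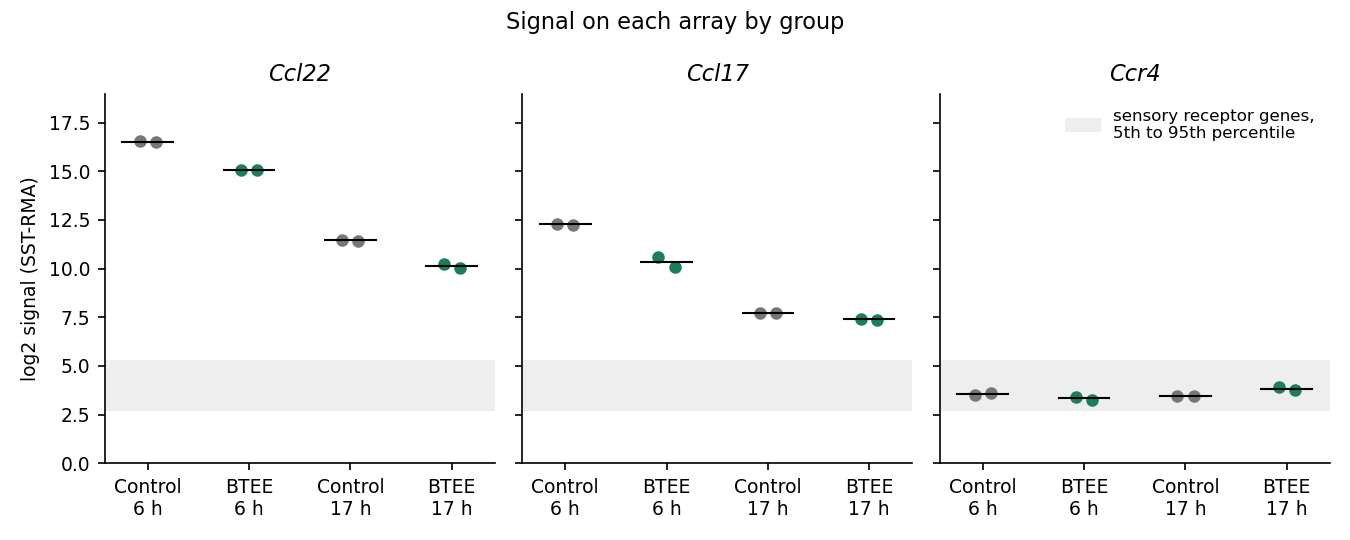
Log2 signal (vertical axis) of Ccl22, Ccl17 and Ccr4 on each of the 8 arrays, by group (horizontal axis); points are arrays, lines are means of 2 arrays, and the grey band spans the 5th to 95th percentiles of sensory receptor genes (2.71 to 5.26). Ccl22 and Ccl17 lay above the band in every group and below control in BTEE cells at both times, while Ccr4 stayed inside it.

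Set against each other within an array, the ligands changed unequally. At 6 h Ccl17 was lowered by 0.49 more than Ccl22 on the log2 scale, and this excess was smaller than the 0.54 between the BTEE arrays of 6 h. The log2 ratio of Ccl22 to Ccl17 at 6 h was 4.46 and 5.00 on the BTEE arrays. On the control arrays of 6 h it was 4.24 and 4.25, so these groups did not overlap either. At 17 h the order was turned, and Ccl22 was lowered by 1.02 more than Ccl17. The log2 ratio of Ccl22 to Ccl17 at 17 h was 2.81 and 2.67 on the BTEE arrays and 3.78 and 3.73 on the control arrays, so the groups were well apart. The ratio itself holds the unequal response of the probes, and only its change between groups can be read.

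Both ligands were far higher at 6 h than at 17 h, with and without the extract. In control cells Ccl22 was 5.06 (SE 0.08) lower at 17 h than at 6 h, a 33.2-fold drop, and in BTEE cells it was 4.95 lower, a 30.9-fold drop. Ccl17 was 4.57 (SE 0.16) lower at 17 h in control cells, a 23.7-fold drop, and 2.96 lower in BTEE cells, a 7.78-fold drop. These values share their arrays with the comparisons of BTEE and control cells and are not separate evidence on them. Ordered by level, Ccl22 ran from control at 6 h through BTEE at 6 h and control at 17 h to BTEE at 17 h, and Ccl17 followed the same order. Every neighbouring pair in that order was separated by more than the spacing of its own arrays, including the closest, BTEE and control of 17 h for Ccl17.

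Ccr4, the receptor of both ligands, was at background. Its gene lies at chr9:114490316-114505476. Its log2 signal was 3.50 and 3.61 in control cells and 3.42 and 3.24 in BTEE cells at 6 h, and 3.47 and 3.45 in control cells and 3.93 and 3.74 in BTEE cells at 17 h. All 8 values fell inside the range of the sensory receptor genes. The differences of -0.23 (SE 0.10) at 6 h and 0.38 (SE 0.10) at 17 h ran in opposite directions. Sensory receptor symbols themselves differed between BTEE and control cells with an SD of 0.38 at 6 h and 0.36 at 17 h, and their 5th to 95th percentiles were -0.66 to 0.59 and -0.59 to 0.59. Both Ccr4 differences lay within these ranges. Of the 17 other chemokine receptors on the list used here, 12 had a mean signal under 6, and limma called 8 lower and 1 higher at 6 h at an adjusted p under 0.05 (all symbols 15.7% and 14.5%). At 17 h, 4 were called lower and 1 higher (all symbols 13.6% and 14.9%). Ccr3 fell by 1.79 (SE 0.17, adjusted p = 0.00108 by limma) at 6 h from a control mean of 7.66. This fall was larger than that of Ccl22 at 6 h, 1.44. Ccr1 fell by 1.20 (SE 0.12, adjusted p = 0.00133 by limma) at 6 h from a control mean of 9.82.

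At 6 h all 3 genes had both BTEE arrays below both control arrays, as did 34.5% of all symbols. At 17 h this held for both ligands, as it did for 32.6% of all symbols, while Ccr4 had both BTEE arrays above, as did 33.9%. The sizes of the differences place the ligands more sharply. Of 21154 symbols, 6 were lowered by more than Ccl17 at 6 h and 21 by more than Ccl22. At 17 h 12 symbols were lowered by more than Ccl22, but 3337 by more than Ccl17. From 6 h to 17 h in control cells, 16 symbols dropped by more than Ccl22 and 27 by more than Ccl17. These ranks describe genes that were picked for such values.

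**Figure D2:**
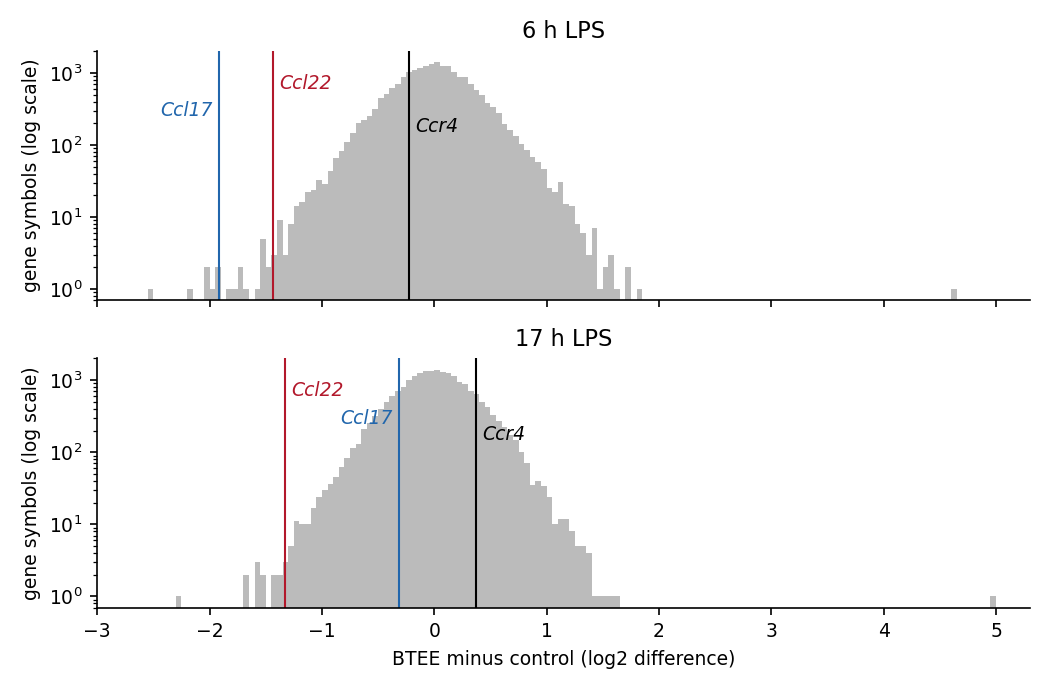
Number of gene symbols (vertical axis, log scale) by log2 difference of BTEE minus control (horizontal axis, bins of 0.05) at 6 h (top) and 17 h (bottom), with vertical lines at Ccl22, Ccl17 and Ccr4. Ccl22 stood in the lower tail at both times (-1.44 and -1.33), Ccl17 in the tail at 6 h (-1.92) and in the bulk at 17 h (-0.32).

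At 6 h no other CC chemokine ligand had a difference as low as those of Ccl22 and Ccl17, and most but not all lay below control. Of the 18 others measured, 8 had a mean signal under 6, at or near background. Ccl3, with a mean of 19.01, stood at the top of the arrays, whose highest signals were 18.96 to 19.06. Whether such levels could show a fall like that of Ccl22 was not tested. Of 18 measured on a list of 19, limma called 10 lower and 0 higher at 6 h at a Benjamini-Hochberg adjusted p under 0.05, where 15.7% of all symbols were called lower and 14.5% higher. Their median difference was -0.38, against -0.005 over all symbols. At 17 h 6 were called lower and 2 higher, with background shares of 13.6% and 14.9% and a median of -0.18. Among those called at both times were Ccl12 and Ccl7, ligands of CCR2 that attract monocytes. Ccl12 fell by 0.66 (SE 0.07, adjusted p = 0.00175 by limma) at 6 h and by 0.63 (adjusted p = 0.00228) at 17 h. Ccl7 fell by 0.55 (SE 0.07, adjusted p = 0.00272 by limma) and by 0.56 (adjusted p = 0.00283). Ccl6 and Ccl5 led the list at 17 h, with falls of 0.90 (SE 0.08, adjusted p = 0.00122 by limma) and 0.70 (SE 0.09, adjusted p = 0.0026). At 17 h the difference of Ccl22, -1.33, was larger in size than that of each of these 18 ligands, and that of Ccl17 was not. It was not the largest among chemokines of other families. Of 17 CXC, CX3C and XC ligands, Cxcl3 fell by 1.57 (SE 0.11, adjusted p = 9.57e-04 by limma) at 17 h. At 6 h Cxcl3 was 0.39 higher (adjusted p = 0.035 by limma). Of these 17, 6 were called lower and 1 higher at 17 h (all symbols 13.6% and 14.9%). Ccl8 and Ccl11, which were also called lower at 6 h, had mean signals of 2.44 to 4.35 in the 4 groups, inside or below the background range, where 12.4% of the sensory receptor symbols were called lower at 6 h. At an unadjusted p under 0.05 no further CC ligand was higher at 6 h (0 of 18). The methods' threshold asks for a fold over 1.5 and takes p without adjustment. By it 3 CC ligands were lower and 0 higher at 6 h (all symbols 5.38% and 5.04%). At 17 h, 3 were lower and 0 higher (4.19% and 4.59%). Those lower at 6 h were Ccl12 and, at background, Ccl8 and Ccl11. The count of 10 at 6 h became 6 without control array 2 of 6 h. The 2 higher calls at 17 h became 1 without either BTEE array of 17 h and 0 without either control array of 17 h.

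**Figure D3:**
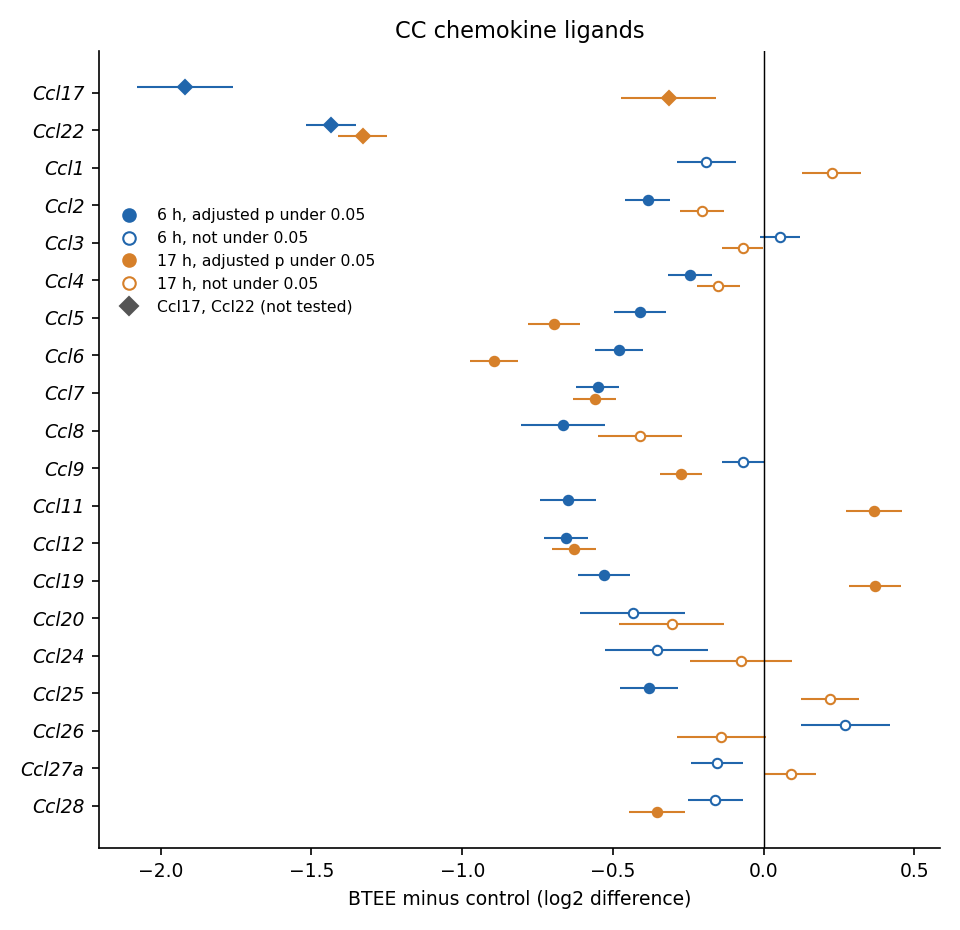
Log2 difference of BTEE minus control (horizontal axis, bars are standard errors) for Ccl17, Ccl22 (diamonds, not tested) and 18 other CC chemokine ligands at 6 h (blue) and 17 h (orange); filled circles mark an adjusted p under 0.05. Ccl17 at 6 h and Ccl22 at both times lay to the left of every other ligand, whose lowest value was -0.90. Of the 18 other ligands, 8 had a mean signal under 6.

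A list for binding or trimming of the ligands outside CCR4 gave few readable signals. Of its 5 genes, 4 had a mean signal under 6. Among them were Ackr2, a scavenging receptor that binds both ligands, and Dpp4. Dpp4 is a peptidase that cuts the amino end of Ccl22 and so ends its action on CCR4. Dpp4 was called higher in BTEE cells at 6 h, with a difference of 0.63 (SE 0.16, adjusted p = 0.0249 by limma), but its 8 signals of 3.62 to 4.59 lay within the background range. Ackr4, a scavenging receptor whose binding of Ccl17 or Ccl22 is not established, was also at background. It was the other gene of the 5 called at 6 h, 0.52 higher (adjusted p = 0.0497 by limma). Ackr2 differed by -0.19 (adjusted p = 0.261 by limma) at 6 h and -0.34 (adjusted p = 0.071) at 17 h. Ccrl2, a surface receptor on this list whose binding of Ccl17 or Ccl22 is not established, was well above background. It fell by 0.30 (SE 0.07, adjusted p = 0.0206 by limma) at 17 h.

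Several genes of the pathways known to induce Ccl17 and Ccl22 were lower in BTEE cells, while Stat6 differed by little. In the list for IL4, IL13 and GM-CSF signaling, 12 of 20 measured genes were called lower and 0 higher at 6 h (all symbols 15.7% and 14.5%). The median of the 20 was -0.37, and 2 were higher at an unadjusted p under 0.05. The list also holds feedback inhibitors, and Socs1, Socs3 and Cish were among the 12. Socs1 fell by 0.80 (SE 0.21, adjusted p = 0.0283 by limma) and Socs3 by 0.76 (SE 0.13, adjusted p = 0.00631) at 6 h. For Socs1 the control arrays of 6 h stood well apart, at 5.98 and 6.70 (SD 0.51). Its BTEE signals of 6 h, 5.43 and 5.65, lay near the upper edge of the background. By RT-qPCR, a PCR measure of RNA, the study describes an upward tendency of Socs1 in BTEE cells at the earlier LPS time. That is the opposite direction, and the cause of the disagreement was not tested. Socs2, another inhibitor, differed by -0.02 at 6 h (adjusted p = 0.895 by limma). At 17 h 8 were called lower and 1 higher (all symbols 13.6% and 14.9%), with a median of -0.24. Stat6, the factor that IL4 and IL13 act through, had log2 signals of 12.50 and 12.49 in control cells and 12.45 and 12.53 in BTEE cells at 6 h. It differed by -0.005 (SE 0.09, adjusted p = 0.971 by limma) at 6 h and by -0.05 (adjusted p = 0.737) at 17 h. Its transcript says nothing of its phosphorylation. Stat5a, another STAT factor on the list, fell by 0.66 (SE 0.08, adjusted p = 0.00257 by limma) at 6 h and by 0.78 (adjusted p = 0.00188) at 17 h. Stat5b differed by -0.09 (adjusted p = 0.388 by limma) and 0.12 (adjusted p = 0.236). Irf4, the factor downstream of GM-CSF, differed by -0.37 (SE 0.16, adjusted p = 0.125 by limma) and -0.51 (adjusted p = 0.0551) and did not pass the test at either time, and its signals at 6 h, 4.14 to 4.88, lay inside the background range. The transcripts of Il4 and Il13 themselves were at background, with mean signals of 3.26 and 4.18 over the 8 arrays. Receptor chains were among the genes that fell. Il13ra1, a chain of the receptor for IL13 and IL4, fell by 1.01 (SE 0.08, adjusted p = 8.36e-04 by limma) at 6 h. Il4ra fell by 0.47 (adjusted p = 0.0044 by limma) at 6 h and by 0.23 (adjusted p = 0.0494) at 17 h. Csf2ra, the chain that binds GM-CSF, fell by 1.20 (SE 0.09, adjusted p = 0.00103 by limma) at 17 h. Csf2rb, another receptor chain on the list, fell by 0.32 (adjusted p = 0.0353 by limma) at 6 h and differed by -0.15 (adjusted p = 0.259) at 17 h. Kdm6b, also on the list, fell by 0.49 (adjusted p = 0.0185 by limma) at 6 h and differed by 0.025 (adjusted p = 0.888) at 17 h. Csf2, which encodes GM-CSF itself, moved the other way and rose by 0.69 (SE 0.13, adjusted p = 0.0091 by limma) at 17 h. Cish, a target of Stat5 that dampens cytokine receptors, fell by 1.07 (adjusted p = 8.86e-04 by limma) at 6 h from control signals of 5.65 and 5.71, near the upper edge of the background. The 8 lower calls at 17 h became 5 without BTEE array 1 or either control array of 17 h, and 1 gene was called higher at 6 h without BTEE array 1 of 6 h or either control array of 17 h.

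Of 11 NF-kB subunits and inhibitors, 5 were called lower and 1 higher at 6 h (median -0.15), where 15.7% of all symbols were called lower and 14.5% higher. At 17 h, 9 were called lower and 0 higher (median -0.26; all symbols 13.6% and 14.9%), and 0 were higher at an unadjusted p under 0.05. Nfkbie, an inhibitor that NF-kB itself induces, fell by 1.30 (SE 0.12, adjusted p = 0.00105 by limma) at 6 h, close to the difference of Ccl22. Rela, the subunit with the main activating role, rose by 0.27 (adjusted p = 0.0272 by limma) at 6 h and fell by 0.59 (SE 0.07, adjusted p = 0.0023) at 17 h. Relb, a subunit linked to dendritic cell maturation, differed by 0.11 (adjusted p = 0.604 by limma) at 6 h and fell by 0.49 (SE 0.15, adjusted p = 0.0475) at 17 h. The falls at 17 h were small, and without 1 array the count of 9 became 4 (either array of BTEE or control at 17 h) or 5 (either BTEE array of 6 h). The count of 5 at 6 h became 2 without BTEE array 1 or control array 1 of 6 h, and 3 without BTEE array 2 or control array 2 of 6 h or either control array of 17 h. The higher call of Rela at 6 h was lost without any 1 of the 4 arrays of 6 h.

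**Figure D4:**
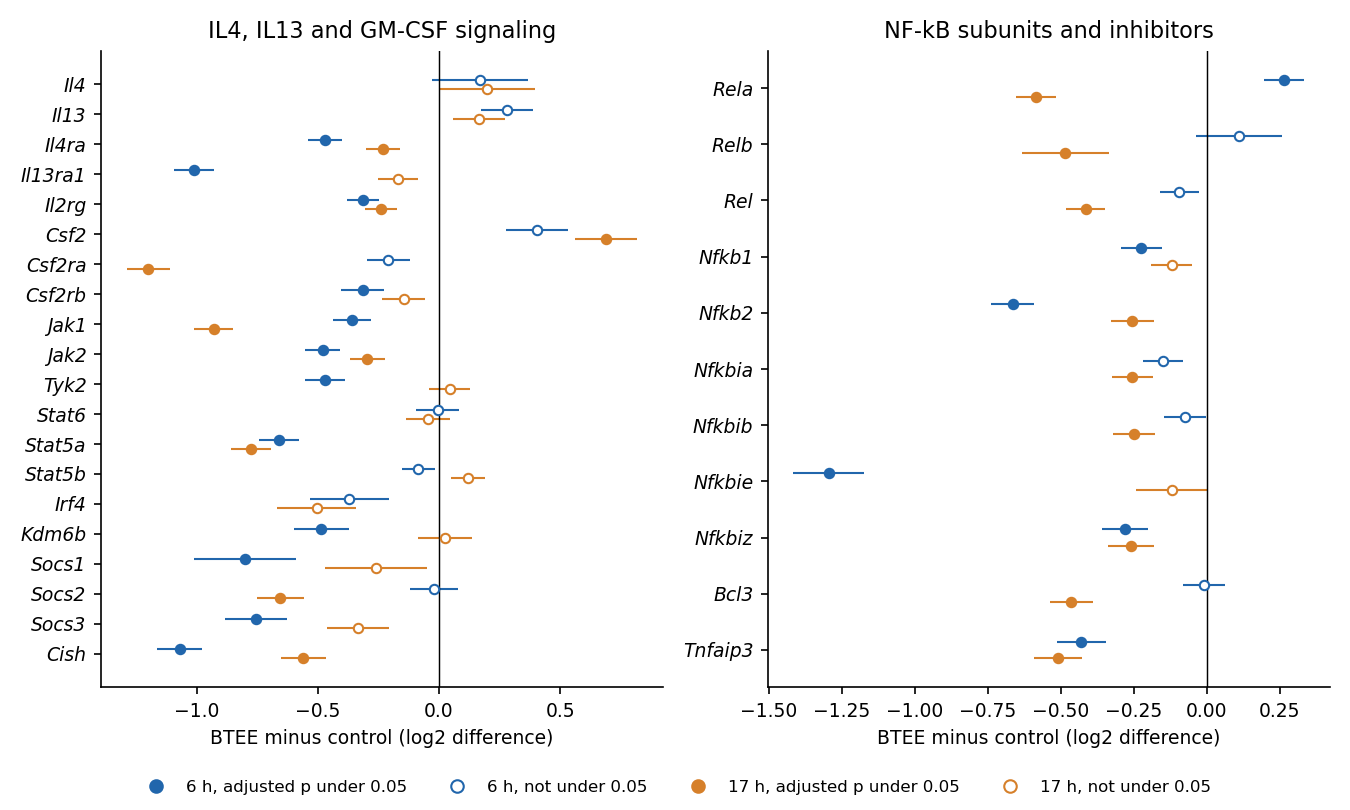
Log2 difference of BTEE minus control (horizontal axes, bars are standard errors) at 6 h (blue) and 17 h (orange) for genes of IL4, IL13 and GM-CSF signaling (left) and of NF-kB (right); filled circles mark an adjusted p under 0.05 by limma. Stat6 lay at 0 within its error at both times, while Il13ra1 and Nfkbie fell by 1.01 and 1.30 at 6 h.

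Ccl17 and Ccl22 are also known as products of maturing dendritic cells, and most but not all genes of a list for that program were lower with them at 6 h. Of 17 maturation genes, 12 were called lower and 1 higher at 6 h (median -0.41), where 15.7% of all symbols were called lower and 14.5% higher. The 1 called higher was Fscn1, by 0.79 (SE 0.165, adjusted p = 0.0136 by limma). Its signals at 6 h, 3.86 to 4.87, lay inside the background range. At 17 h, 7 were called lower and 1 higher (median -0.22), where the shares were 13.6% and 14.9%. Cd83, a surface marker of maturation, fell by 1.14 (SE 0.08, adjusted p = 7.04e-04 by limma) at 6 h and differed by -0.20 at 17 h. Il15, a cytokine that sustains T and NK cells, fell by 1.10 (SE 0.08, adjusted p = 7.04e-04 by limma) at 6 h, and Cd40, a receptor for T cell help, fell by 0.98 (adjusted p = 8.34e-04). These 3 genes, like Ccl17, had a smaller difference at 17 h, and limma's test of the change between the times passed for each, as it did for 31.4% of all symbols. Their levels did not move alike. In control cells Cd83 rose by 2.03 from 6 h to 17 h, while Il15, Cd40 and Ccl17 dropped by 2.68, 3.11 and 4.57. The 12 lower calls at 6 h became 7 without control array 2 of 6 h, and the 7 at 17 h became 4 without BTEE array 2 or control array 1 of 17 h. The higher call at 6 h was lost without BTEE array 2 or control array 1 of 6 h. That at 17 h was lost without any 1 of the 4 arrays of 17 h, and became 2 calls without either control array of 6 h. Of 15 markers of alternative activation, the macrophage state that IL4 induces and that includes both ligands, 6 were called lower and 0 higher at 6 h (median -0.19), with 2 higher at an unadjusted p under 0.05 and 1 called higher without either BTEE array of 17 h or BTEE array 2 of 6 h. At 17 h, 3 were called lower and 2 higher (median -0.09), near the shares over all symbols, and 11 of the 15 had a mean signal under 6. The 2 higher calls became 1 without BTEE array 2 of 17 h and 0 without any other array of 17 h. Of the 12 macrophage identity genes, 5 were called lower at 6 h, and 2 were called lower and 2 higher at 17 h, the latter near the shares over all symbols. Of the 9 dendritic cell markers, 2 were called lower and 1 higher at 6 h, also near those shares. At 17 h, 2 were called lower, and 8 of the 9 had a mean signal under 6.

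The genes whose 8 centred signals ran closest to those of each ligand were different for the 2. Likeness was the root mean square difference over the 8 arrays among 9386 symbols with a mean signal of at least 6, and it is set largely by the drop from 6 h to 17 h. For Ccl22 the closest were Socs3, a feedback inhibitor of cytokine signaling (0.49), Egr1, an immediate early transcription factor (0.51), Themis2, a signaling adaptor of macrophages (0.51), Cxcl11, an interferon-induced chemokine (0.53), and Edn1, which encodes endothelin 1 (0.54). All 5 dropped by 4.06 to 5.61 from 6 h to 17 h in control cells, against 5.06 for Ccl22, and each had a smaller difference with BTEE than Ccl22 at both times. Egr1 came nearest at 17 h, with -1.03 against -1.33 for Ccl22, and Cxcl11 at 6 h, with -1.21 against -1.44. For Ccl17 the closest were Gbp2 (0.22), Ifit1bl1 (0.24), Batf2 (0.32), Gm5431 (0.37) and Gbp3 (0.37). Gbp2 and Gbp3 encode guanylate-binding proteins and, like Batf2, are known as interferon-induced. Gbp2 had differences of -1.47 at 6 h and -0.35 at 17 h, beside -1.92 and -0.32 for Ccl17, and dropped by 4.17 in control cells, beside 4.57. Each ligand was a less close match for the other: Ccl17 came at rank 29 for Ccl22, with 0.75, and Ccl22 at rank 88 for Ccl17.

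Ccl22 and Ccl17 lie on the same chromosome with 57991 bases between them, and Cx3cl1, the gene of a membrane-bound chemokine, lies in that gap at chr8:94772180-94782427. No other annotated gene overlaps Ccl22, Ccl17 or Ccr4. Cx3cl1 was near background, with log2 signals of 3.97 and 3.84 in control cells and 3.71 and 3.59 in BTEE cells at 6 h. It differed by -0.26 (SE 0.08, adjusted p = 0.0556 by limma) at 6 h and by 0.06 (adjusted p = 0.62) at 17 h, so the gene between the ligands did not pass the test at either time. Within 500 kb of the interval the arrays measured 22 genes other than the ligands. Of these, 3 were called lower and 3 higher at 6 h, near the 15.7% and 14.5% of all symbols, with a median of -0.05 and a range of -0.59 to 0.58. At 17 h 2 were called lower and 6 higher, where 13.6% and 14.9% of all symbols were, with a median of 0.19 and a range of -0.61 to 0.82. No neighbour came near the differences of Ccl22, or that of Ccl17 at 6 h, in the downward direction. The next measured gene before Ccl22, Pllp, was at background and differed by 0.00 and -0.11. The next after Ccl17, Ciapin1, differed by -0.13 (adjusted p = 0.237 by limma) at 6 h and rose by 0.44 (adjusted p = 0.00666) at 17 h.

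**Figure D5:**
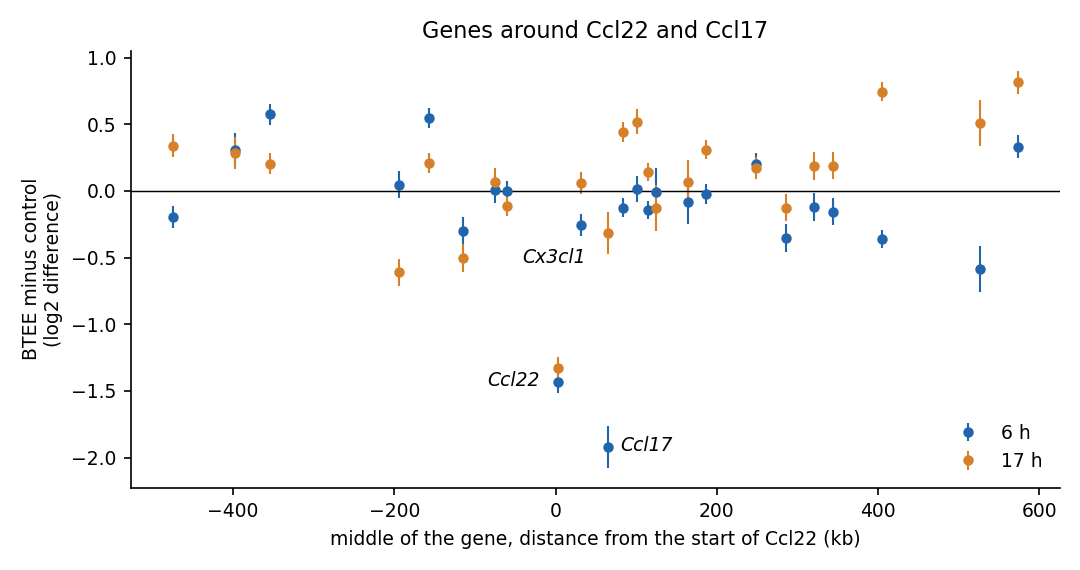
Log2 difference of BTEE minus control (vertical axis, bars are standard errors) at 6 h (blue) and 17 h (orange) for Ccl22, Ccl17 and 22 measured genes within 500 kb, by the distance of the gene's middle from the start of Ccl22 (horizontal axis, kb). Ccl22 at both times and Ccl17 at 6 h lay below every neighbour, whose lowest value was -0.61.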

How the data were processed

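RAW264 RNA was hybridised to 8 Clariom S mouse arrays, and the 4 groups of 2 arrays were taken from the sample labels. The authors normalized the arrays by SST-RMA in the Transcriptome Analysis Console (4.0.1 in the series text, 4.0.2 in the methods) and deposited the log2 signals of 22206 probe sets. Their comparison tables gave gene symbols. The group averages, fold changes, p-values and FDR in them were not used as results. Probe sets with several symbols (836) or none (3) and the dimmer ones of a symbol (213) were left out, which gave 21154 symbols.

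The fit used limma 3.58.1 (R 4.3.3), with a mean for each group over all 8 arrays (4 residual degrees of freedom, constant prior). Standard errors were moderated by limma, p-values were adjusted by Benjamini-Hochberg over all symbols, and a symbol was called at an adjusted p under 0.05. The fit was tested on simulated data. Coordinates are those of the RefSeq annotation of GRCm38.p6, the build of mm10. The number of arrays limits the precision.

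The 3 genes and the lists were chosen with earlier results of these data known, so the 3 genes carry no p. Lists covered other CC ligands, CXC, CX3C and XC ligands, chemokine receptors, ligand binding or trimming, and IL4, IL13 and GM-CSF signaling. Others covered NF-kB, maturation, alternative activation, and markers of macrophages, T, B and dendritic cells and of fibroblasts and epithelium. Named were the 3 genes, up to 4 called members of a list with the largest change at each time, Stat6, Irf4, Kdm6b, Il4ra, Csf2, Csf2rb, Relb, Rela, Cx3cl1, Ackr2 and Dpp4, the 5 symbols closest to each ligand, and neighbours within 500 kb, of which not all are described. Outside that rule, Ccl3, Fscn1, Socs2, Stat5b, Il4 and Il13 were also named. Alternatives were quantile normalization, median centring, a minimum mean signal of 6, the compared arrays alone, a replicate block, a trended robust prior, probe sets of a symbol averaged, the methods' threshold (unadjusted p under 0.05, fold over 1.5) and leaving out each array.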

Additional observations from a re-analysis of the deposited data

Results flagged for a closer look

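Ccr4 was lower in both BTEE arrays at 6 h and higher in both at 17 h, and its effect was 0.60 higher at 17 h on the log2 scale. That difference was not tested, and all its signals were at background.

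By limma's test of the difference itself (adjusted p under 0.05, a call made for 31.4% of all symbols), the BTEE effect differed between the times for 4 of 18 CC ligands, 2 of 5 genes of ligand binding or trimming, 7 of 20 of IL4, IL13 and GM-CSF signaling, 5 of 11 of NF-kB, 9 of 17 of maturation and 9 of 22 neighbours of Ccl22 and Ccl17. The 20 of these genes that the naming rule picked follow, and the others are not named here. The effect at 17 h minus that at 6 h was 0.95 for Cd83, 1.02 for Il15, 0.70 for Cd40, 0.59 for Il15ra, 0.84 for Il13ra1, 0.51 for Cish, 0.51 for Kdm6b, 1.18 for Nfkbie and 0.41 for Nfkb2, each lower in BTEE cells mainly at 6 h. It was -0.99 for Csf2ra, -0.57 for Jak1, -0.85 for Rela, -0.46 for Bcl3, -0.76 for Marcksl1 and -0.42 for Ccl6, each lower mainly at 17 h. It was 1.02 for Ccl11 and -0.96 for Ackr4, both at background. Of the neighbours, it was 0.57 for Ciapin1, 1.11 for Kifc3 and 0.49 for Tepp. Kifc3 differed by -0.36 at 6 h (adjusted p = 0.00934 by limma) and 0.75 at 17 h (adjusted p = 0.00131), and Tepp, at background, by 0.33 (adjusted p = 0.0286) and 0.82 (adjusted p = 0.00182).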

How the results depend on the processing

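The differences of Ccl22, Ccl17 and Ccr4 kept their direction under the 5 alternatives run on them that kept every array, in 72 values in all. These were median centring, quantile normalization, the compared arrays alone, averaged probe sets and the replicate block. All 72 moved by less than the spread between replicates, but only median centring and quantile normalization could move them. Each gene has 1 probe set, and the compared arrays alone and the balanced block leave a difference of group means unchanged. Without 1 array, the difference of Ccl17 ranged over -2.19 to -1.65 at 6 h and -0.34 to -0.30 at 17 h. Its change between the times ranged over 1.34 to 1.88, and its drop in BTEE cells over -3.23 to -2.69. The difference of Ccl22 ranged over -1.46 to -1.41 at 6 h and -1.42 to -1.24 at 17 h. Its change ranged over 0.015 to 0.195, and its drop in BTEE cells over -5.04 to -4.86.

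At the methods' threshold 1138 symbols were lower and 1066 higher at 6 h, 887 and 972 at 17 h, 3269 and 3004 between the times in control cells, and 2741 and 2583 in BTEE cells. Symbols with a mean signal of at least 6 gave 3538 higher between the times in control cells. Without 1 array, lower calls ranged over 1836 to 3120 at 6 h and 1390 to 2744 at 17 h, and higher calls over 1719 to 2905 and 1548 to 3002. For the change of effect the ranges were 2088 to 2384 lower and 2404 to 2791 higher, between the times in control cells 4607 to 5541 and 4473 to 5446, and in BTEE cells 4185 to 5031 and 4052 to 4980.

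Of counts in lists, 127 stayed within 1.5 times and 33 did not. At the methods' threshold lower calls were 3 at 6 h and 3 at 17 h for CC ligands, 5 and 4 for IL4, IL13 and GM-CSF signaling, 2 and 1 for NF-kB, and 5 and 3 for maturation. Higher calls were 0 for CC ligands, alternative activation and maturation at 17 h and for NF-kB at 6 h. With the compared arrays alone, NF-kB had 3 lower and 0 higher calls at 6 h and 5 lower at 17 h. Higher calls were then 1 for CC ligands and alternative activation and 2 for maturation at 17 h, and 1 for IL4, IL13 and GM-CSF signaling and alternative activation at 6 h. With a mean signal of at least 6, alternative activation had 3 lower and 1 higher calls at 6 h and 0 higher at 17 h, CC ligands 0 higher at 17 h, maturation 0 higher at 6 h, and IL4, IL13 and GM-CSF signaling 1 higher at 6 h. With trend and robust estimation, higher calls were 1 for CC ligands and 2 for maturation at 17 h and 1 for IL4, IL13 and GM-CSF signaling and alternative activation at 6 h. With the mean of all probe sets, CC ligands had 1 higher call at 17 h.

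Without 1 array, lower calls at 6 h and 17 h ranged over 6 to 9 and 4 to 7 for CC ligands, 8 to 12 and 5 to 7 for IL4, IL13 and GM-CSF signaling, 2 to 4 and 4 to 6 for NF-kB, 5 to 6 and 3 to 4 for alternative activation, and 7 to 12 and 4 to 7 for maturation. Higher calls ranged over 0 to 2 for CC ligands, alternative activation and maturation at 17 h, and 0 to 1 for IL4, IL13 and GM-CSF signaling, NF-kB, alternative activation and maturation at 6 h.

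Same-numbered arrays of different groups did not deviate together (correlations of -0.0011 to 0.0202), so the numbers were taken as names. With replicate number as a block, 3129 symbols were lower and 2881 higher at 6 h, and 2658 and 2903 at 17 h. NF-kB then had 5 lower calls at 17 h and alternative activation 1 higher at 6 h. Where a count changed, the cause was not tested.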
